A study of Mus musculus with 18 samples.

Results

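The genes described here are a module of 42 mouse genes of glycolysis and of the cellular response to low oxygen, followed through cultured CD4 T cells. The module holds 14 glycolytic enzymes, 6 genes of lactate transport and carbon routing, and 22 other genes of the hypoxia response. Among these 22 is Hif1a, which encodes a subunit of HIF-1 itself. Members were found by matching their symbols to the Entrez identifiers of the deposited count files, and all 42 were among the 27179 genes listed. All 42 also passed the filter on low counts that left 11735 genes for testing. The list is named for what its genes are known to do, and neither oxygen nor HIF protein is among the values analysed here.

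Every mouse carried a floxed Maf gene (Maf fl/fl), which encodes the transcription factor c-Maf. CD4Cre, a recombinase driven by the Cd4 promoter that acts in T cells, was labelled as present (CD4Cre+) or absent (CD4Cre-). Naive CD4 T cells were activated on bound anti-CD3 and anti-CD28, kept for 3.5 days under treatments that the labels call Tfh5, Tfh1 and TfhA, sorted by flow cytometry, and read by 3′ mRNA sequencing, which counts the polyadenylated ends of transcripts. The 18 libraries form 6 groups of 3: Cre-positive and Cre-negative in each of Tfh5, Tfh1 and TfhA. Cre-positive libraries carry replicate numbers 1, 3 and 6, and Cre-negative libraries 2, 4 and 5. The sources used here give neither what the treatments contained nor the age and sex of the mice. Whether a replicate number stands for a mouse is not stated, and p-values therefore reflect only how far these libraries spread, which may be technical.

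Maf itself ran against the genotype labels. It averaged 349 ± 42.03 CPM in libraries labelled Cre-positive and 0 CPM in those labelled Cre-negative in Tfh5, 221 ± 34.3 and 0.676 ± 1.17 CPM in Tfh1, and 11.98 ± 9.52 and 0.0900 ± 0.156 CPM in TfhA (SD, n = 3 libraries each). CPM are counts scaled to a common effective library size. The sources used here do not say which exons of Maf lie between the loxP sites. Every genotype difference below is therefore a difference between libraries labelled Cre-positive and libraries labelled Cre-negative, and its direction rests on labels that the Maf level contradicts. They are called Cre-positive and Cre-negative libraries for short, by label alone.

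Libraries held 6424874 to 9236153 counts and 10242 to 12673 genes above 0. The 42 members took 0.484% to 0.563% of the counts in Cre-positive Tfh5 libraries and 0.729% to 0.888% in Cre-negative Tfh5 libraries, and over all 18 libraries the share reached 1.24%. All 10 CD4 T cell markers examined were above 0 in each of the 6 groups, but their summed level was not steady. In Tfh5 it was 3253 to 3849 CPM in Cre-positive and 2716 to 3261 CPM in Cre-negative libraries. In Tfh1 it was 3815 to 4239 and 2724 to 3132 CPM, and in TfhA 2302 to 2800 and 2107 to 2140 CPM, in the same order. Cd4 itself had 129 ± 5.88 CPM in Cre-positive and 57.4 ± 7.80 CPM in Cre-negative Tfh5 libraries (SD, n = 3 each). The part of these markers in the results was not tested. Fewer cells of a type and less RNA per cell cannot be told apart in these bulk libraries.

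Glycolysis splits glucose into pyruvate, which lactate dehydrogenase turns into lactate when carbon is not sent to the mitochondria, and T cells are known to raise this pathway when they are activated. When oxygen is scarce, prolyl hydroxylases stop marking the HIF-α proteins for destruction, and HIF then binds short DNA motifs and induces glycolytic enzymes together with genes for mitophagy, collagen modification, vessel growth and stress. T cell receptor and mTOR signals are known to raise HIF-1α in oxygen as well, so the same genes also report activation in this cell type.

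In Tfh5 cultures the module was lower in libraries labelled Cre-positive than in those labelled Cre-negative. Of the 42 members, 18 were lower and 0 higher at an adjusted p of 0.05, where 3.24% of all 11735 tested genes were called in either direction and 2.05% were called lower. They comprised 6 of 14 enzymes, 1 of 6 carbon routing genes and 11 of 22 other hypoxia genes. The median log2 fold change, Cre-positive over Cre-negative, was -0.72 over the enzymes, -0.82 over carbon routing and -1.11 over the other hypoxia genes, beside 0 over all tested genes. The fold change was below 0 for 38 of the 42 members. The libraries of the groups did not overlap, in the lower direction, for 21 members, against 8.62% of all tested genes. The members were chosen with earlier results of these data known. Counts set beside the share of all genes, here and below, are therefore descriptions and no independent evidence.

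**Figure D1:**
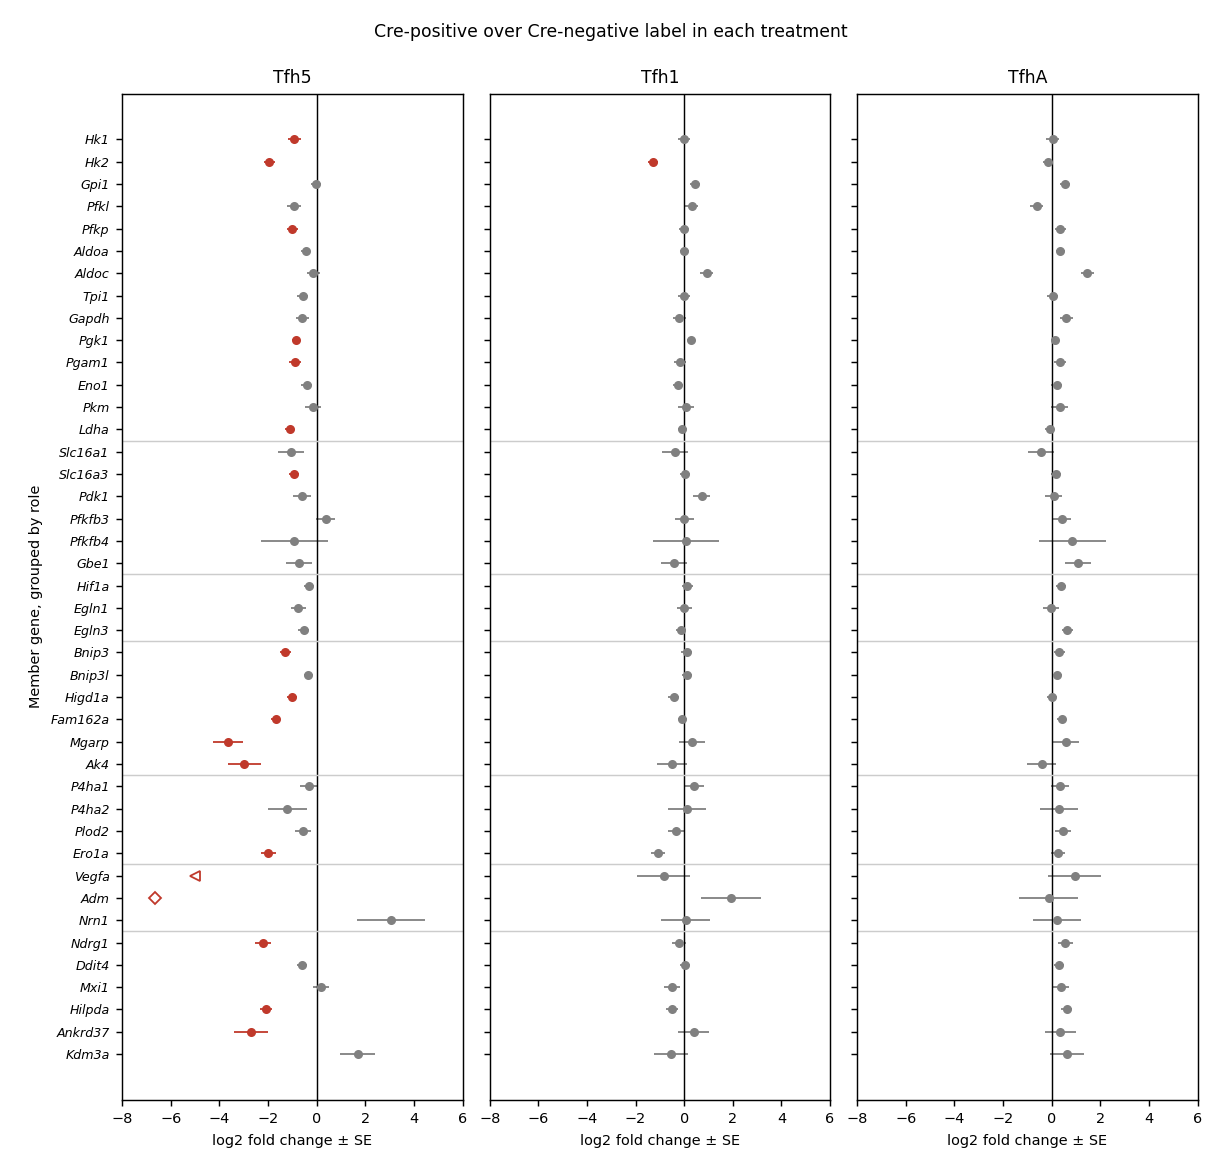
Log2 fold change ± SE of each of the 42 members (rows, grouped by role), libraries labelled Cre-positive over Cre-negative, in Tfh5, Tfh1 and TfhA (3 libraries per group). Red symbols passed the threshold: 18 members in Tfh5, 1 (Hk2) in Tfh1 and 0 in TfhA. The open triangle marks the bound of Vegfa and the open diamond the ratio of counts of Adm.

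Of the lists of other cell types, the B cell and myeloid sums were lower in Cre-positive than in Cre-negative Tfh5 libraries without overlap. The sums of the other lists overlapped. The summed level of 12 B cell markers was 8.91 to 21.5 CPM in Cre-positive and 47.3 to 80.6 CPM in Cre-negative Tfh5 libraries. In the Cre-positive Tfh5 group 5 of these markers were above 0 and in the Cre-negative Tfh5 group 4, and Ms4a1 and Pax5, which help define B cells, were at 0 in both. Most of the sum came from H2-Ab1, an MHC class II gene, with 13.5 ± 7.16 CPM in Cre-positive and 57.9 ± 12.8 CPM in Cre-negative Tfh5 libraries. Ebf1, a B cell transcription factor, had 0.101 ± 0.174 CPM in Cre-positive and 7.70 ± 4.40 CPM in Cre-negative Tfh5 libraries (SD, n = 3 each). Cd74 had 1.86 ± 1.68 and 2.16 ± 3.49 CPM in the same order. Cd79a and Cd22 were above 0 in the Cre-positive group only, and H2-Aa in the Cre-negative group only. The 9 markers of CD8 T, NK and innate lymphoid cells summed to 22.2 to 37.7 CPM (4 markers above 0) in Cre-positive and 37.6 to 64.8 CPM (5 above 0, Ncr1 and Klrb1c at 0 in both groups) in Cre-negative Tfh5 libraries. The 13 myeloid and dendritic markers summed to 0.387 to 9.35 CPM (5 above 0) in Cre-positive and 9.59 to 18.7 CPM (7 above 0, Cd14 and Fcer1g at 0 in both groups) in Cre-negative Tfh5 libraries. Of these, Cst3 and S100a8 were above 0 in the Cre-positive group only, and Lyz2, Itgam, Adgre1 and Tyrobp in the Cre-negative group only. Gamma delta T cell markers summed to 0 to 9.22 CPM in Cre-positive and 0 to 5.45 CPM in Cre-negative Tfh5 libraries. Erythroid markers summed to 2.47 to 3.87 CPM in Cre-positive and 1.14 to 4.35 CPM in Cre-negative Tfh5 libraries. The part of these sums in the results was not tested.

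The 4 members Hk2, Fam162a, Ero1a and Hilpda were called lower in Tfh5 under every alternative setting tried, including each of the 6 libraries left out in turn. Hk2, the inducible hexokinase that commits glucose to the pathway, had 35.1, 39.9 and 29.4 CPM in Cre-positive replicates 1, 3 and 6, against 127, 138 and 136 CPM in Cre-negative replicates 2, 4 and 5 of Tfh5. The log2 fold change was -1.94 ± 0.22 (adjusted p = 1.70e-07). Every Cre-positive library was below every Cre-negative one, and the spread within each group was small beside the gap.

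Fam162a, a mitochondrial protein induced by HIF-1, had 189.8, 145 and 187 CPM in Cre-positive and 636, 531 and 518 CPM in Cre-negative Tfh5 libraries, with a log2 fold change of -1.69 ± 0.18 (adjusted p = 6.76e-08). Ero1a, the endoplasmic reticulum oxidase that helps form disulfide bonds, had 32.03, 13.9 and 23.8 CPM in Cre-positive and 120.3, 81.5 and 73.9 CPM in Cre-negative Tfh5 libraries, a log2 fold change of -1.99 ± 0.30 (adjusted p = 4.77e-05). Hilpda, a lipid droplet protein that restrains lipolysis, had 71.01, 46.7 and 27.9 CPM in Cre-positive and 246, 170.0 and 197 CPM in Cre-negative Tfh5 libraries, a log2 fold change of -2.08 ± 0.25 (adjusted p = 5.72e-07). The groups did not overlap for any of these 3 genes. Within the Cre-positive group Hilpda and Ero1a were highest in replicate 1, Hilpda was lowest in replicate 6 and Ero1a in replicate 3.

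**Figure D2:**
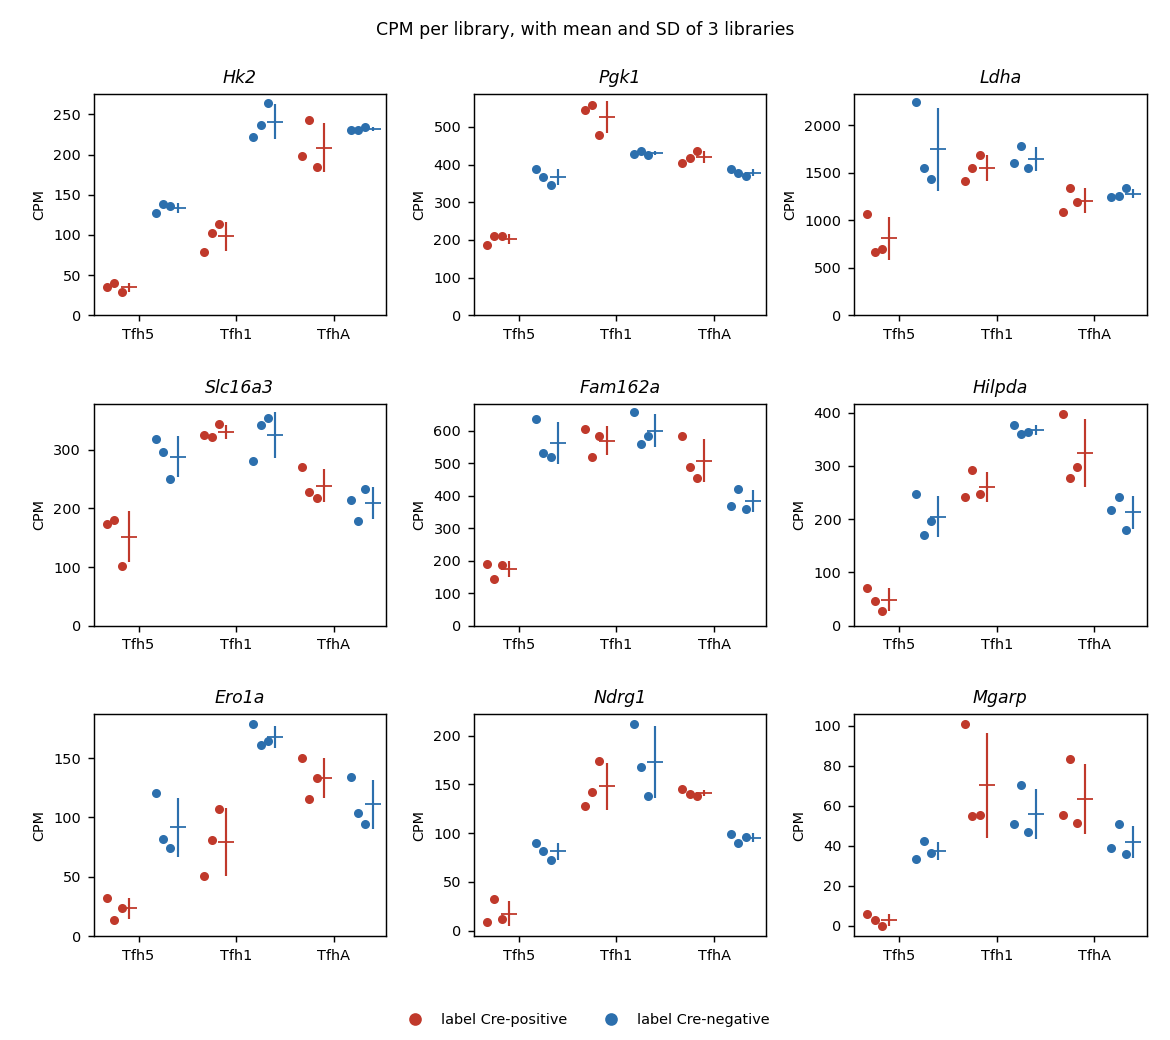
CPM of 9 members per library (points) with the mean and SD of 3 libraries (bars), by treatment and genotype label. In Tfh5 the Cre-positive points lie below the Cre-negative ones for each of the 9 genes shown.

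The promoter windows of these 4 genes are printed because they were lower in every setting and because the core of the known HIF binding motif can be read in them. Each window runs from 250 bases before to 50 bases after the annotated start, 300 bases in all, 5′ to 3′ on the strand of the gene, from RefSeq on GRCm38.p6. Capitals mark ACGTG or GCGTG on either strand, so that CACGT or CACGC stands for a match on the opposite strand, and overlapping matches are counted separately. Hk2 (chr6:82774405-82774704, minus strand) holds 2 matches, Fam162a (chr16:36071512-36071811, minus strand) 6, Ero1a (chr14:45318523-45318822, minus strand) 3, and Hilpda (chr6:29272376-29272675, plus strand, of its 2 windows the one with more matches) 3.
Hk2: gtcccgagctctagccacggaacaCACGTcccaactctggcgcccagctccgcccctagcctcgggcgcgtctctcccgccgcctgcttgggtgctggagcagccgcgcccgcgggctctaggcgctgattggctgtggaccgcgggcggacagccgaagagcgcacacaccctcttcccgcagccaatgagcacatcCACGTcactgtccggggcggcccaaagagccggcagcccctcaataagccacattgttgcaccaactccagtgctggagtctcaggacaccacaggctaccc
Fam162a: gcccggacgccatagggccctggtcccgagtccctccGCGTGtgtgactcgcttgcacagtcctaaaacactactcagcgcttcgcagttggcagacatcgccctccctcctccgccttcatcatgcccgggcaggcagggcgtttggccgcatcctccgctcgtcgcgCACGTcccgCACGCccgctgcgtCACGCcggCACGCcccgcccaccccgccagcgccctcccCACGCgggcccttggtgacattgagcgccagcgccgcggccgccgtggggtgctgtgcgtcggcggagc
Ero1a: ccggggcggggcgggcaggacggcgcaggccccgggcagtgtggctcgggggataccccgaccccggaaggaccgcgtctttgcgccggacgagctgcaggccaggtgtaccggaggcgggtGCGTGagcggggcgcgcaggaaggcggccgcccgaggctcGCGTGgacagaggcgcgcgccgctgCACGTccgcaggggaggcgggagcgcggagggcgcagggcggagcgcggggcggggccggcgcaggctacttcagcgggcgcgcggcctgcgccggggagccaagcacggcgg
Hilpda: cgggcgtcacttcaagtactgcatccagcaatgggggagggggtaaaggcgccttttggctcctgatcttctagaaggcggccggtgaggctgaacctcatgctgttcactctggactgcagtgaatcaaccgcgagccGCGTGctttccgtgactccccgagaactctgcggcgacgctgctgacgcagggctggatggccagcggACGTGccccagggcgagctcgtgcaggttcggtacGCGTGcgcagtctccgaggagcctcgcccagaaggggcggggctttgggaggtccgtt

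A promoter window was matched for 38 of the 42 members. Bnip3l, Plod2, Nrn1 and Ndrg1 had none in the table used. At least 1 window with either motif was found for 35 of the 38 matched genes (92.11%), against 46.73% of the 27025 genes in the table. By list, 12 of 14 enzymes, 5 of 6 carbon routing genes and 18 of 18 other hypoxia genes had one. Counted by window, 80.7% of 57 member windows and 43.77% of all 32851 windows held a match. Member windows also held more CG pairs, with a median of 24 per window against 7 over all genes, and both motifs contain CG. The members without a match were Gpi1, Tpi1 and Gbe1. These letters describe the windows and say nothing of whether a factor was bound.

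Along the glycolytic chain, both hexokinase genes were among the called enzymes of Tfh5. Hk1, the constitutive hexokinase, had 82.8, 92.4 and 43.6 CPM in Cre-positive and 199, 118 and 96.5 CPM in Cre-negative Tfh5 libraries (log2 fold change -0.92 ± 0.26, adjusted p = 0.0447). Pfkp, the platelet form of phosphofructokinase and a main control point of the pathway, had 118, 166 and 162 CPM in Cre-positive and 442, 228 and 218 CPM in Cre-negative Tfh5 libraries (log2 fold change -1.0 ± 0.23, adjusted p = 0.00727). Cre-negative replicate 2 held the highest value of both genes, and the groups did not overlap for either.

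Both calls were lost in some fits with 1 library left out. Over all tested genes 380 were called with all libraries. There were 313 without Cre-negative Tfh5 replicate 2, 258 without Cre-positive Tfh5 replicate 1 and 287 without Cre-positive Tfh5 replicate 6. Without Cre-negative Tfh5 replicate 2 the adjusted p of Hk1 was 0.333 and that of Pfkp 0.155, and without Cre-positive Tfh5 replicate 1 they were 0.0686 for Hk1 and 0.0721 for Pfkp. For Hk1 it was 0.291 without Cre-positive Tfh5 replicate 6 and 0.0585 with RLE scaling, another way to set library sizes.

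Of the enzymes of the later steps, Pgk1, Pgam1 and Ldha were called lower in Tfh5. Pgk1, the phosphoglycerate kinase that makes ATP, had 187, 209 and 212 CPM in Cre-positive and 388, 366 and 345 CPM in Cre-negative Tfh5 libraries (log2 fold change -0.86 ± 0.17, adjusted p = 0.00133). Pgam1, the phosphoglycerate mutase of the next step, had 142, 182 and 75.8 CPM in Cre-positive and 200.3, 256 and 288 CPM in Cre-negative Tfh5 libraries (log2 fold change -0.90 ± 0.24, adjusted p = 0.0268). Ldha, the lactate dehydrogenase subunit that favours lactate, had 1071, 663 and 697 CPM in Cre-positive and 2250.5, 1554 and 1433 CPM in Cre-negative Tfh5 libraries (log2 fold change -1.11 ± 0.18, adjusted p = 0.000174). The groups did not overlap for these 3 genes. The Pgam1 call was lost without any of 4 libraries: its adjusted p was 0.0627 without Cre-positive Tfh5 replicate 1, 0.229 without Cre-positive replicate 6, 0.0586 without Cre-negative replicate 4 and 0.128 without Cre-negative replicate 5. Pgk1 and Ldha kept their calls with any 1 library left out.

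The other 8 enzymes did not pass in Tfh5. Their log2 fold changes ran from -0.93 ± 0.28 for Pfkl, the liver form of phosphofructokinase (adjusted p = 0.057), to -0.04 ± 0.20 for Gpi1, the glucose phosphate isomerase (adjusted p = 0.99). Cre-negative Tfh5 replicate 2 stood apart from its group here. Gapdh, which makes NADH in the middle of the pathway, had 118, 118 and 106 CPM in Cre-positive replicates 1, 3 and 6 and 68.97, 248 and 199 CPM in Cre-negative replicates 2, 4 and 5 of Tfh5. Pkm, the pyruvate kinase, had 597, 686 and 519.9 CPM in Cre-positive and 255, 971 and 795 CPM in Cre-negative Tfh5 libraries. In both genes replicate 2 was the lowest of the 6 libraries while the other 2 Cre-negative libraries were the highest. Without it Gapdh and Tpi1, the triose phosphate isomerase, had an adjusted p of 0.0035 for Gapdh and 0.0197 for Tpi1, against 0.272 for Gapdh and 0.219 for Tpi1 with all libraries, and that of Pkm was 0.156. Which enzymes of the chain were called thus depended on this library.

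Counts of most enzymes were not whole numbers in most libraries, in all 18 for Aldoa, Tpi1, Pgk1, Pgam1, Pkm and Ldha and in 17 for Gapdh and Eno1. Reads of these genes may have been shared with near-identical copies, so their levels are uncertain. Aldoc, by contrast, had such values in 2 libraries only.

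Among the carbon routing genes only Slc16a3, the monocarboxylate transporter MCT4 that exports lactate, was called in Tfh5. It had 174, 181 and 101 CPM in Cre-positive and 318, 296 and 251 CPM in Cre-negative libraries without overlap (log2 fold change -0.92 ± 0.21, adjusted p = 0.0065). Without Cre-positive Tfh5 replicate 6, its lowest library, the adjusted p was 0.0877. Slc16a1, the related transporter MCT1, had 18.4, 10.5 and 10.7 CPM in Cre-positive and 22.04, 3.28 and 57.2 CPM in Cre-negative Tfh5 libraries, where Cre-negative replicate 4 was the lowest and replicate 5 the highest of all 6 (adjusted p = 0.37). Pfkfb3, which makes the activator of phosphofructokinase, was the member of this list with a fold change above 0, at 0.37 ± 0.39 (adjusted p = 0.788).

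The oxygen-sensing genes did not pass. Hif1a, the regulated subunit of HIF-1, had 218, 200.5 and 215 CPM in Cre-positive and 362, 228 and 205 CPM in Cre-negative Tfh5 libraries (log2 fold change -0.33 ± 0.21, adjusted p = 0.496), and the groups overlapped. Egln1, the prolyl hydroxylase PHD2, was at -0.75 ± 0.33 (adjusted p = 0.27). Egln3, the hydroxylase PHD3 that HIF itself induces, was at -0.54 ± 0.23 (adjusted p = 0.239).

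The mitochondrial hypoxia genes were lower together: 5 of the 6 were called, and for all 6 the Cre-positive Tfh5 libraries lay below the Cre-negative ones. Bnip3, a mitophagy receptor, had 146, 99.6 and 69.99 CPM in Cre-positive and 276, 278 and 217 CPM in Cre-negative Tfh5 libraries (log2 fold change -1.29 ± 0.23, adjusted p = 0.000426). Higd1a, an inner membrane protein linked to the respiratory chain, had 88.2, 95.6 and 63.02 CPM in Cre-positive and 197, 142 and 162 CPM in Cre-negative Tfh5 libraries (log2 fold change -1.02 ± 0.22, adjusted p = 0.0033). Its counts were not whole in any of the 18 libraries, and those of Bnip3 in 17, so both are uncertain in level.

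Mgarp and Ak4 had few counts in Cre-positive Tfh5 libraries. Mgarp, a mitochondrial membrane protein, had 5.89, 3.12 and 0 CPM in Cre-positive and 33.4, 42.5 and 36.3 CPM in Cre-negative Tfh5 libraries (log2 fold change -3.65 ± 0.62, adjusted p = 0.000754). Ak4, the adenylate kinase of the mitochondrial matrix, had 4.99, 5.32 and 0 CPM in Cre-positive and 24.1, 18.8 and 38.6 CPM in Cre-negative Tfh5 libraries (log2 fold change -2.98 ± 0.68, adjusted p = 0.0107). Replicate 6 held no count of either gene in the Cre-positive group. The Ak4 call was lost without Cre-negative Tfh5 replicate 5 (adjusted p = 0.0566). Bnip3l, the mitophagy receptor also called NIX, was the member of this list that did not pass (log2 fold change -0.34 ± 0.20, adjusted p = 0.419).

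Of the collagen-modifying and oxidoreductase genes, Ero1a passed and the prolyl and lysyl hydroxylases of collagen did not. P4ha1, P4ha2 and Plod2 had log2 fold changes in Tfh5 of -0.31 ± 0.38 for P4ha1, -1.21 ± 0.80 for P4ha2 and -0.56 ± 0.32 for Plod2, with the groups overlapping in each.

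Both secreted factors that were called had few counts. Vegfa, the vessel growth factor, had no count in any Cre-positive Tfh5 library and 4.28, 5.98 and 2.68 CPM in the Cre-negative ones. With 0 counts over the Cre-positive group against 91 over the Cre-negative group, and a floor of 3 counts over the group, it was at least 32.3-fold lower (adjusted p = 0.00492). Adm, the peptide adrenomedullin, had 0.151, 0 and 0 CPM in Cre-positive and 5.19, 0.142 and 8.87 CPM in Cre-negative Tfh5 libraries. These are 1 count against 94 counts, a ratio of 100-fold lower with a 95% counting interval of 17.5 to 3997, which covers counting error only (adjusted p = 0.0277). Cre-negative replicate 4 held almost none, so the groups overlapped for Adm. The Adm call was lost without Cre-positive Tfh5 replicate 3 (adjusted p = 0.1), Cre-positive replicate 6 (0.113) or Cre-negative replicate 5 (0.0862). Nrn1, the surface protein neuritin, was close to 0 in both Tfh5 groups and did not pass (adjusted p = 0.314).

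Of the stress and regulatory genes, Hilpda, Ndrg1 and Ankrd37 were called in Tfh5. Ndrg1, a stress-responsive gene linked to growth arrest, had 8.61, 32.1 and 12.01 CPM in Cre-positive and 90.2, 81.2 and 72.6 CPM in Cre-negative libraries (log2 fold change -2.21 ± 0.31, adjusted p = 1.78e-05). Ankrd37, an ankyrin repeat protein and HIF-1 target, had 1.96, 5.06 and 0 CPM in Cre-positive and 19.4, 6.98 and 19.2 CPM in Cre-negative libraries (log2 fold change -2.69 ± 0.70, adjusted p = 0.0233). The groups did not overlap for either gene, but the Ankrd37 call was lost without Cre-positive Tfh5 replicate 1 (adjusted p = 0.112), Cre-positive replicate 6 (0.0721), Cre-negative replicate 2 (0.0692) or Cre-negative replicate 5 (0.0762).

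Kdm3a, a histone demethylase known as a HIF target, and Mxi1 had fold changes above 0. Kdm3a had 15.6, 22.3 and 23.8 CPM in Cre-positive and 4.41, 4.84 and 9.87 CPM in Cre-negative Tfh5 libraries without overlap, but did not pass (log2 fold change 1.69 ± 0.72, adjusted p = 0.247). Ddit4, the mTOR inhibitor REDD1, was at -0.60 ± 0.21 (adjusted p = 0.12), and Mxi1, a repressor that opposes Myc, at 0.18 ± 0.33 (adjusted p = 0.911).

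When the Tfh5 comparison was fitted with its own 6 libraries alone, without the spread of the other 12, 4 members remained called: Hk2, Fam162a, Ero1a and Hilpda. The number of all tested genes called fell from 380 to 80. In that fit 13 members lost their call, with adjusted p from 0.0564 for Ndrg1 to 0.472 for Ankrd37, and Adm did not pass the filter.

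Enzymes and the other hypoxia genes were set side by side library by library. For each list the level of a library is the median over its genes of the log2(CPM + 1) deviation from the mean of the gene over 18 libraries. Enzymes stood at -0.63, -0.56 and -0.82 in Cre-positive and -0.06, 0.13 and -0.00 in Cre-negative Tfh5 libraries. The other hypoxia genes stood at -0.96, -0.97 and -1.57 in Cre-positive and 0.17, -0.08 and -0.15 in Cre-negative Tfh5 libraries. For both lists the 3 Cre-positive Tfh5 libraries were the lowest of all 18, and replicate 6 was the lowest of the 3. The pooled SD within groups was 0.0835 for enzymes and 0.175 for the other hypoxia genes. These levels are descriptions, and no test of one list against the other was made.

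**Figure D3:**
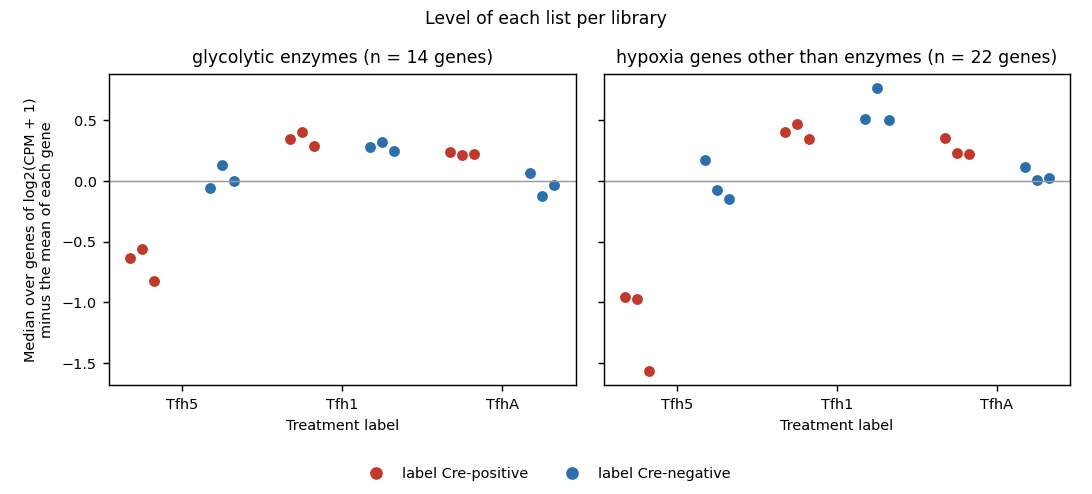
Median log2(CPM + 1) deviation per library for the 14 enzymes and the 22 other hypoxia genes, by treatment and genotype label; each point is a library. Cre-positive Tfh5 libraries lie at -0.56 to -0.82 for enzymes and -0.96 to -1.57 for the other hypoxia genes, below the other 15 libraries in both panels.

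In Tfh1, Hk2 was the 1 member called between libraries labelled Cre-positive and those labelled Cre-negative. The share of all tested genes called was 0.852%, and 0.341% were called lower. Hk2 had 78.4, 103 and 114 CPM in Cre-positive and 221, 236 and 264 CPM in Cre-negative Tfh1 libraries (log2 fold change -1.29 ± 0.21, adjusted p = 0.000461). The groups did not overlap, and the call held under every alternative setting. The median log2 fold change was -0.00 over the enzymes and -0.03 over the other hypoxia genes, beside -0.02 over all tested genes, with 21 members above 0 and 21 below. Ero1a came next, with 50.2, 81.3 and 107 CPM in Cre-positive and 179, 161 and 164 CPM in Cre-negative Tfh1 libraries (log2 fold change -1.08 ± 0.29, adjusted p = 0.0671). Without Cre-positive Tfh1 replicate 6, its highest Cre-positive library, the adjusted p of Ero1a was 0.0381. Of the lists of other cell types, only the B cell sum did not overlap between labels in Tfh1. It was 98.8 to 122 CPM in Cre-positive and 140.3 to 169.6 CPM in Cre-negative libraries. In the same order H2-Ab1 averaged 107 ± 11.3 and 135 ± 14.9 CPM, and Ebf1 0 and 20.0 ± 4.25 CPM. The sum was thus lower in Cre-positive Tfh1 libraries, beside medians of -0.00 over the enzymes and -0.03 over the other hypoxia genes. Its part in the results was not tested.

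In TfhA no member was called by edgeR, and none of all tested genes was (0%). At an unadjusted p under 0.05 there were 8 of 42 members and 606 of 11735 genes. The fold change was above 0 for 35 members, the opposite side from Tfh5, with a median of 0.26 over the enzymes and 0.35 over the other hypoxia genes, beside 0 over all tested genes. The B cell list summed to 115 to 166 CPM in Cre-positive and 73.4 to 91.8 CPM in Cre-negative TfhA libraries without overlap, with 8 of 12 markers above 0 and Pax5 at 0 in both groups. H2-Ab1 made up most of it, with 112 ± 36.4 CPM in Cre-positive and 55.5 ± 11.5 CPM in Cre-negative TfhA libraries. Ebf1 and Cd74 did not average higher in Cre-positive TfhA libraries. Ebf1 had 14.96 ± 8.13 CPM in Cre-positive and 17.5 ± 5.79 CPM in Cre-negative TfhA libraries, and Cd74 3.66 ± 6.16 and 8.36 ± 8.88 CPM. The list of CD8 T, NK and innate lymphoid cells summed to 170.3 to 237 CPM in Cre-positive and 181 to 244 CPM in Cre-negative TfhA libraries. The part of these sums in the results was not tested. Cre-positive libraries lay above Cre-negative ones without overlap for 13 members, against 6.15% of all tested genes in that direction. The largest difference was that of Aldoc, the brain form of aldolase, with 141, 116 and 137 CPM in Cre-positive and 53.7, 49.5 and 38.96 CPM in Cre-negative TfhA libraries (log2 fold change 1.47 ± 0.28, adjusted p = 0.0715). Its adjusted p was 0.0323 without Cre-positive TfhA replicate 3, 0.044 with RLE scaling, 0.00118 with no filter on counts and 0.000962 with DESeq2, and it was then the 1 member called. In Tfh1 Aldoc lay on the same side, with 191, 197 and 189 CPM in Cre-positive and 91.3, 127 and 85.9 CPM in Cre-negative libraries (adjusted p = 0.114).

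**Figure D4:**
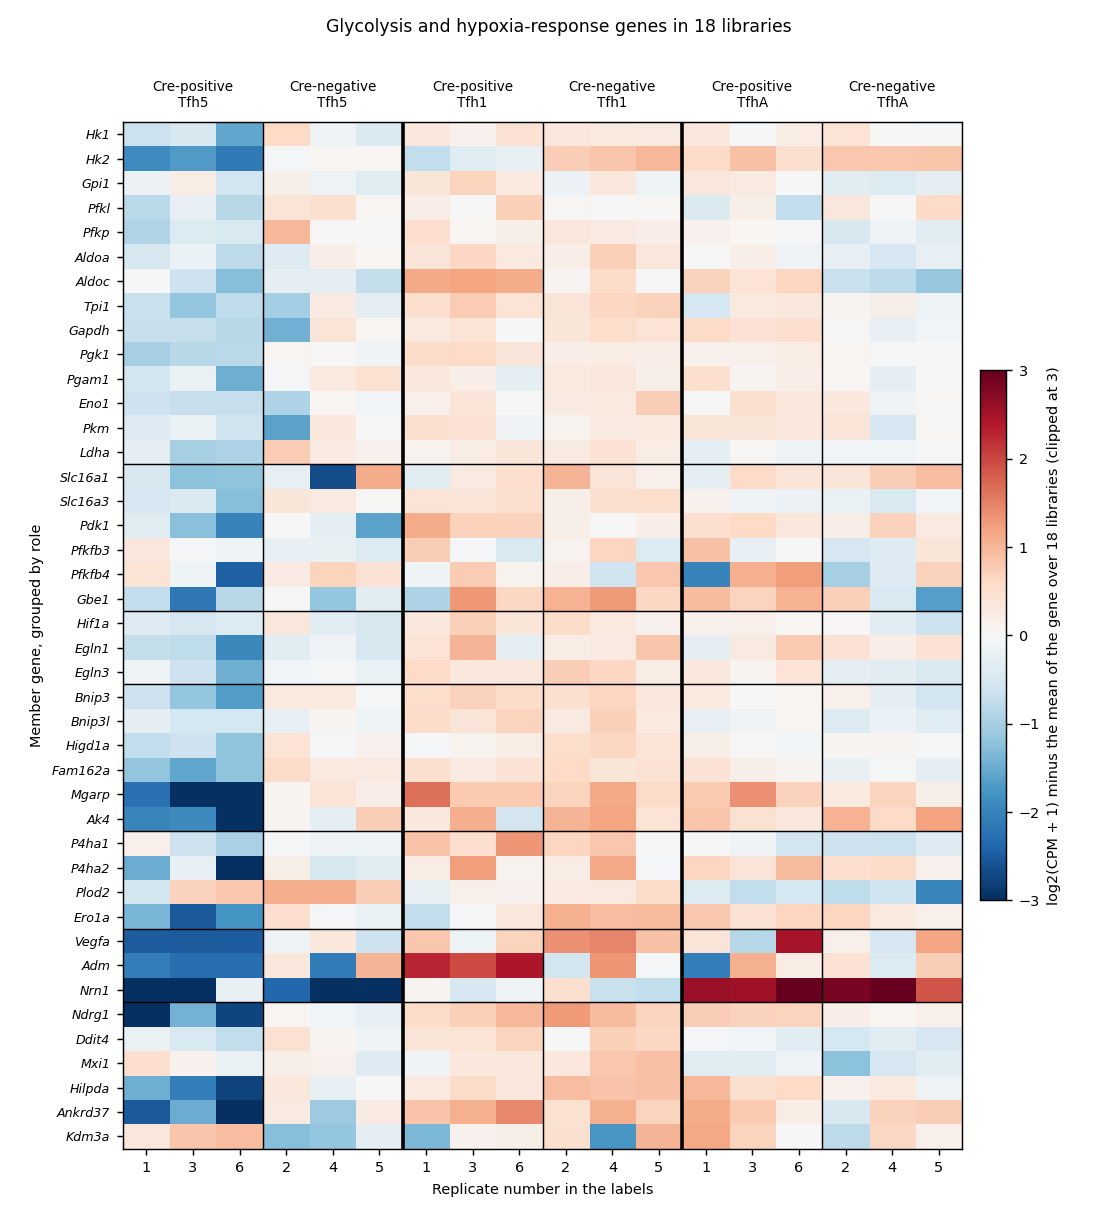
Log2(CPM + 1) of the 42 members in 18 libraries, minus the mean of each gene and limited to a range of 3 either way; rows are genes by role, columns libraries by treatment, genotype label and replicate number. The Cre-positive Tfh5 columns are low across most rows, with 38 of 42 members below the Cre-negative Tfh5 group.

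Whether the genotype difference itself differed between treatments was tested as an interaction term. Between Tfh5 and TfhA it differed for 13 members, all with a more negative value in Tfh5, where 1.19% of all tested genes were called and 0.861% in that direction. They were 5 of 14 enzymes (Hk2, Pfkp, Aldoc, Pgk1 and Ldha), 1 of 6 carbon routing genes (Slc16a3) and 7 of 22 other hypoxia genes (Bnip3, Fam162a, Mgarp, Ero1a, Vegfa, Ndrg1 and Hilpda). The median difference was -0.98 over the enzymes and -1.33 over the other hypoxia genes, beside -0.01 over all tested genes. Hilpda had a genotype difference of -2.08 ± 0.25 in Tfh5 and 0.61 ± 0.24 in TfhA, a difference of -2.69 ± 0.34 (adjusted p = 4.32e-06). For Fam162a the values were -1.69 ± 0.18 in Tfh5 and 0.41 ± 0.18 in TfhA, a difference of -2.10 ± 0.25 (adjusted p = 1.28e-06). Aldoc was called here without being called in either treatment, with -0.13 ± 0.27 in Tfh5 and 1.47 ± 0.28 in TfhA (difference -1.60 ± 0.39, adjusted p = 0.0241).

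None of these genes was called by label in TfhA itself. Hilpda had 398, 278 and 298 CPM in Cre-positive and 218, 242 and 179 CPM in Cre-negative TfhA libraries. Fam162a had 583, 489 and 454 CPM in Cre-positive and 367, 421 and 359.7 CPM in Cre-negative TfhA libraries. For both genes every Cre-positive TfhA library was above every Cre-negative one, on the other side from Tfh5. Ero1a and Hk2 overlapped between labels in TfhA, with 150.3, 116 and 134 CPM of Ero1a in Cre-positive and 134, 104 and 94.8 CPM in Cre-negative libraries, and 198, 243 and 184 CPM of Hk2 in Cre-positive and 230.4, 230.5 and 235 CPM in Cre-negative libraries.

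The differences of Hk2, Bnip3, Fam162a, Mgarp, Ero1a, Ndrg1 and Hilpda were called in every alternative. The other 6 were lost without 1 or more single libraries. The Pfkp difference lost its call without any of Cre-positive Tfh5 replicate 1, Cre-positive TfhA replicate 1, Cre-negative Tfh5 replicate 2 and Cre-negative TfhA replicates 2 and 5 (adjusted p up to 0.1). Aldoc lost its call without Cre-positive Tfh5 replicate 6, Cre-positive TfhA replicates 1 or 6 or Cre-negative TfhA replicate 5 (up to 0.0992), and Pgk1 without Cre-positive Tfh5 replicate 1, Cre-positive TfhA replicate 6 or Cre-negative TfhA replicates 4 or 5 (up to 0.0736). Vegfa lost its call without Cre-positive TfhA replicate 6 (0.119) or Cre-negative TfhA replicate 4 (0.0557). Ldha lost it without any of 8 libraries: Cre-positive Tfh5 replicates 3 and 6, Cre-positive TfhA replicates 3 and 6, Cre-negative Tfh5 replicate 2 and Cre-negative TfhA replicates 2, 4 and 5 (adjusted p up to 0.0885). Slc16a3 lost it without any of 9: Cre-positive Tfh5 replicate 6, Cre-positive TfhA replicates 1, 3 and 6, Cre-negative Tfh5 replicates 2 and 4 and Cre-negative TfhA replicates 2, 4 and 5 (up to 0.16). With the 12 libraries of Tfh5 and TfhA fitted alone, all 6 were lost, where 88 of all tested genes were called against 140 in the main fit.

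Between Tfh5 and Tfh1 the genotype difference differed for Pgk1 and Fam162a, among 0.0597% of all tested genes. Fam162a had -1.69 ± 0.18 in Tfh5 and -0.07 ± 0.18 in Tfh1, a difference of -1.62 ± 0.25 (adjusted p = 0.000766) that was called in every alternative. Pgk1 had -0.86 ± 0.17 in Tfh5 and 0.29 ± 0.17 in Tfh1, a difference of -1.15 ± 0.24 (adjusted p = 0.0385). In Tfh1 this kinase was at 544, 557 and 478 CPM in Cre-positive and 429, 436 and 426 CPM in Cre-negative libraries, with the Cre-positive ones all above. The Pgk1 call was lost without any of 8 single libraries, namely Cre-positive Tfh5 replicates 1 and 6, Cre-positive Tfh1 replicates 1 and 3, Cre-negative Tfh5 replicate 4 and Cre-negative Tfh1 replicates 2, 4 and 5 (adjusted p up to 0.163). For Hk2, the member also lower in Tfh1, no difference between the treatments was called at -0.65 ± 0.30 (adjusted p = 0.557), which does not show that the effects were alike. Between Tfh1 and TfhA no member was called by edgeR, against 0.239% of all tested genes. There were 7 members and 826 of 11735 genes at an unadjusted p under 0.05, and DESeq2 called 1 member, among 63 of all tested genes.

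Treatments were then contrasted within each genotype label. These contrasts share their Cre-positive Tfh5 libraries with the comparison above, so they are no independent evidence on those libraries. The B cell list summed to 8.91 to 21.5 CPM in Cre-positive Tfh5, 98.8 to 122 CPM in Cre-positive Tfh1 and 115 to 166 CPM in Cre-positive TfhA libraries, and the list of CD8 T, NK and innate lymphoid cells to 22.2 to 37.7, 30.1 to 42.003 and 170.3 to 237 CPM in the same order. H2-Ab1 carried most of the B cell sum, with 13.5 ± 7.16 CPM in Cre-positive Tfh5, 107 ± 11.3 CPM in Cre-positive Tfh1 and 112 ± 36.4 CPM in Cre-positive TfhA libraries, and Ebf1 averaged 0.101, 0 and 14.96 CPM in that order. Pax5 was at 0 in all 3 of these groups, and the part of these lists in the results was not tested. Among Cre-positive libraries 28 of 42 members were lower and 0 higher in Tfh5 than in Tfh1, where 1.76% of all tested genes were called in either direction and 1.32% lower. These were 10 of 14 enzymes, 2 of 6 carbon routing genes and 16 of 22 other hypoxia genes, with medians of -0.94 over the enzymes, -1.16 over carbon routing and -1.67 over the other hypoxia genes, beside 0 over all tested genes. Pgk1 had 187, 209 and 212 CPM in Cre-positive Tfh5 and 544, 557 and 478 CPM in Cre-positive Tfh1 libraries (log2 fold change -1.38 ± 0.17, adjusted p = 1.18e-06). Hk2 was at -1.50 ± 0.22 (adjusted p = 2.85e-05).

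The carbon routing genes called were Slc16a3 at -1.12 ± 0.21 and Pdk1, the kinase that keeps pyruvate out of the mitochondria, at -1.95 ± 0.37. Pdk1 had 41.7, 21.8 and 12.5 CPM in Cre-positive Tfh5 and 117, 87.8 and 87.6 CPM in Cre-positive Tfh1 libraries without overlap (adjusted p = 0.00169). All 3 oxygen-sensing genes were lower in Cre-positive Tfh5 than in Cre-positive Tfh1: Egln3 at -1.06 ± 0.23 (adjusted p = 0.0068), Egln1 at -1.54 ± 0.33 (adjusted p = 0.00711) and Hif1a, named after its values were seen, at -0.90 ± 0.21 (adjusted p = 0.0147). Hif1a had 218, 200.5 and 215 CPM in Cre-positive Tfh5 and 351, 465 and 364 CPM in Cre-positive Tfh1 libraries. Without Cre-positive Tfh1 replicate 3 the adjusted p was 0.112 for Hif1a and 0.102 for Egln1. Without Cre-positive Tfh5 replicate 6 it was 0.0723 for Egln1 and 0.0726 for Egln3, and without Cre-positive Tfh5 replicate 3 it was 0.0719 for Hif1a.

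Some of the calls of Cre-positive Tfh5 against Cre-positive Tfh1 were lost with 1 library left out. Pfkp lost its call without any 1 of the 6 libraries (adjusted p of 0.0562 to 0.233), and also with a replicate block (0.0553), RLE scaling (0.0507) or the 6 libraries alone (0.0882). Gapdh lost it without any library but Cre-positive Tfh1 replicate 6 (0.0955 to 0.156), and so did Eno1 (0.0706 to 0.146). Hk1 lost it without Cre-positive Tfh5 replicate 6 (0.127) or Cre-positive Tfh1 replicate 6 (0.0622). Without Cre-positive Tfh5 replicate 6, then, 6 of the 10 enzymes kept their call: Hk2, Aldoa, Aldoc, Tpi1, Pgk1 and Ldha. Ddit4 lost its call without Cre-positive Tfh5 replicate 6 (0.0659) or Cre-positive Tfh1 replicate 6 (0.052). With the 6 libraries alone Hk1, Egln1, Egln3, Higd1a, Ak4, Vegfa and Ankrd37 also lost their calls (adjusted p of 0.0607 to 0.183).

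All 6 mitochondrial genes were called lower in Cre-positive Tfh5 than in Cre-positive Tfh1, led by Fam162a at -1.71 ± 0.18 (adjusted p = 6.16e-08) and Bnip3 at -1.70 ± 0.23 (adjusted p = 8.01e-06). Bnip3 had 146, 99.6 and 69.99 CPM in Cre-positive Tfh5 and 326, 367 and 331 CPM in Cre-positive Tfh1 libraries. The Higd1a call was lost without Cre-positive Tfh5 replicate 6 (adjusted p = 0.107) or Cre-positive Tfh1 replicate 6 (0.0622), and the Ak4 call without Cre-positive Tfh1 replicate 3 (0.0546). Of the stress genes Hilpda was at -2.42 ± 0.25 (adjusted p = 4.85e-08) and Ndrg1 at -3.07 ± 0.32 (adjusted p = 6.16e-08), and Ero1a was at -1.78 ± 0.30 (adjusted p = 0.000322). Vegfa, with 0 counts in Cre-positive Tfh5 against 146 in Cre-positive Tfh1, was at least 52.4-fold lower (adjusted p = 0.00374, and 0.176 with the 6 libraries alone). Adm, with 1 count against 450, had a ratio of 484-fold lower with a 95% counting interval of 86.5 to 19164 (adjusted p = 0.00552).

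Among Cre-negative libraries the same contrast gave no call by edgeR for any member, where 0.554% of all tested genes were called. The fold change was below 0 for 37 of 42 members, with medians of -0.34 over the enzymes and -0.67 over the other hypoxia genes, and 16 members had an unadjusted p under 0.05, as had 1218 of 11735 genes. DESeq2 called 4 of them lower, among 211 of all tested genes called in either direction: Hk2, Tpi1, Ndrg1 and Hilpda, named after their values were seen. Fam162a had 636, 531 and 518 CPM in Cre-negative Tfh5 and 657, 558 and 585 CPM in Cre-negative Tfh1 libraries, so that these groups overlapped. The difference of this contrast between the labels is the same as the difference of the genotype effects of Tfh5 and Tfh1, which was called for Pgk1 and Fam162a.

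**Figure D5:**
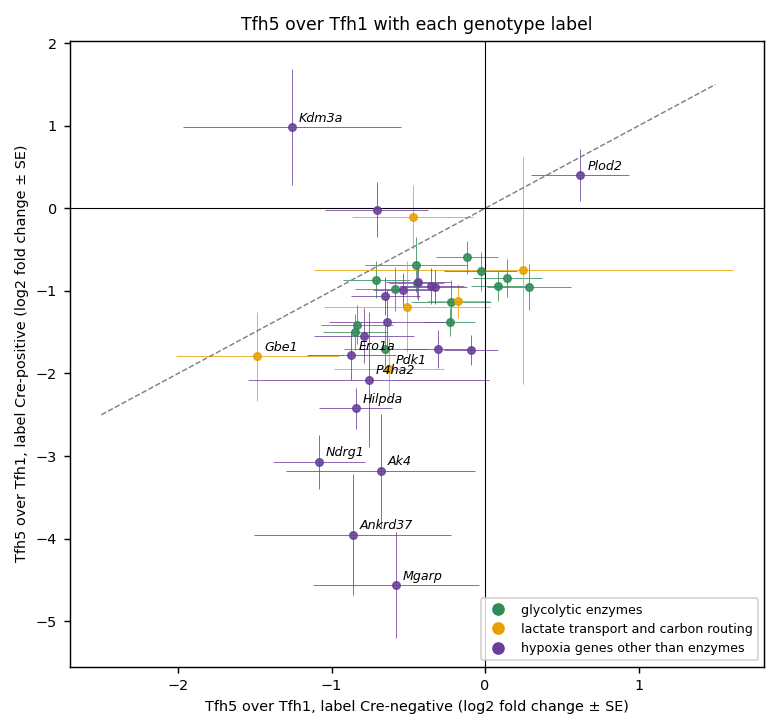
Log2 fold change ± SE, Tfh5 over Tfh1, in libraries labelled Cre-positive (vertical) against libraries labelled Cre-negative (horizontal); each point is a member, the dashed line marks equal change, and Vegfa, Adm and Nrn1, with groups near 0 counts, are left out. Most points lie below the line, with 28 members called among Cre-positive and 0 among Cre-negative libraries.

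Against TfhA, 24 members were lower and 0 higher in Cre-positive Tfh5 libraries, where 5.39% of all tested genes were called in either direction and 3.00% lower. Hk2 was at -2.58 ± 0.22 (adjusted p = 1.68e-10) and Pgk1 at -1.05 ± 0.17 (adjusted p = 4.55e-05). Fam162a was at -1.55 ± 0.18 (adjusted p = 1.04e-07) and Mgarp at -4.41 ± 0.64 (adjusted p = 5.29e-05). Hilpda was at -2.74 ± 0.25 (adjusted p = 6.55e-10), Ndrg1 at -3.0 ± 0.32 (adjusted p = 2.19e-08) and Ero1a at -2.52 ± 0.30 (adjusted p = 2.10e-07). Vegfa was at least 95.7-fold lower, with 0 counts in Cre-positive Tfh5 against 309 in Cre-positive TfhA.

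Several calls in this contrast were lost with 1 library left out. Pdk1 was at -1.57 ± 0.37 (adjusted p = 0.00537, and 0.055 without Cre-positive Tfh5 replicate 6). Gbe1, the glycogen branching enzyme, was at -2.10 ± 0.54 (adjusted p = 0.0141, and 0.0907 without Cre-positive Tfh5 replicate 3). Egln1 was at -1.39 ± 0.33 (adjusted p = 0.00645, and 0.084 without Cre-positive TfhA replicate 6 or 0.0734 without Cre-positive Tfh5 replicate 6), and Egln3 at -0.93 ± 0.23 (adjusted p = 0.00833, and 0.104 without Cre-positive Tfh5 replicate 6). Adm had 1 count against 131, a ratio of 122-fold lower with a counting interval of 21.5 to 4844.5 (adjusted p = 0.0181, and 0.0816 without Cre-positive TfhA replicate 3, 0.0788 without Cre-positive Tfh5 replicate 3, 0.0782 without Cre-positive Tfh5 replicate 6 or 0.0786 with a replicate block). Among the enzymes, Hk1 lost its call without Cre-positive TfhA replicate 1 (0.0592) or Cre-positive Tfh5 replicate 6 (0.14), Aldoc without Cre-positive Tfh5 replicate 6 (0.0768), Pgam1 without Cre-positive TfhA replicate 1 (0.0819) or Cre-positive Tfh5 replicate 6 (0.15), and Tpi1 without Cre-positive TfhA replicates 3 or 6 or Cre-positive Tfh5 replicate 3 (up to 0.0838). Higd1a lost its call without Cre-positive Tfh5 replicate 6 (0.0785). With the 6 libraries compared fitted alone, Hk1, Aldoc, Pgam1, Egln1, Egln3, Ak4 and Ankrd37 lost their calls (adjusted p of 0.0523 to 0.0879).

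In Cre-negative libraries the contrast of Tfh5 with TfhA gave 3 calls, 1 higher and 2 lower, where 5.08% of all tested genes were called. The list of CD8 T, NK and innate lymphoid cells summed to 37.6 to 64.8 CPM in Cre-negative Tfh5 and 181 to 244 CPM in Cre-negative TfhA libraries, with 5 of 9 markers above 0 in each and Ncr1 and Klrb1c at 0 in both. The B cell list summed to 47.3 to 80.6 CPM in Cre-negative Tfh5 and 73.4 to 91.8 CPM in Cre-negative TfhA libraries. The part of these sums in the results was not tested. Plod2, the lysyl hydroxylase of collagen, had 139.6, 139 and 109 CPM in Cre-negative Tfh5 and 37.7, 42.4 and 16.1 CPM in Cre-negative TfhA libraries (log2 fold change 2.01 ± 0.33, adjusted p = 7.75e-05). Hk2 had 127, 138 and 136 CPM in Cre-negative Tfh5 and 230.4, 230.5 and 235 CPM in Cre-negative TfhA libraries (log2 fold change -0.80 ± 0.21, adjusted p = 0.0171). Nrn1 had 0.648, 0 and 0 CPM in Cre-negative Tfh5 and 59.5, 68.1 and 30.3 CPM in Cre-negative TfhA libraries (5 against 1410 counts, adjusted p = 0.00301). The groups did not overlap for any of the 3 genes. The Hk2 call was lost without any of 4 libraries, with adjusted p of 0.0504, 0.0688 and 0.0766 without Cre-negative TfhA replicates 2, 4 and 5, and 0.0515 without Cre-negative Tfh5 replicate 5.

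Nrn1 varied with the treatment under both labels. It had 0, 0 and 6.20 CPM in Cre-positive and 0.648, 0 and 0 CPM in Cre-negative Tfh5 libraries, 7.83, 5.06 and 6.84 CPM in Cre-positive and 10.7, 4.26 and 4.05 CPM in Cre-negative Tfh1 libraries, and 49.7, 47.6 and 85.1 CPM in Cre-positive and 59.5, 68.1 and 30.3 CPM in Cre-negative TfhA libraries. The TfhA libraries were the highest of all 18 under both labels, and no genotype difference of Nrn1 was called in any treatment. Among Cre-positive libraries it was called lower in Tfh5 than in TfhA (adjusted p = 0.0203), and without Cre-positive TfhA replicate 6, its highest library, the adjusted p was 0.054.

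Tfh1 was set against TfhA under each label, and the difference of this contrast between the labels was called for no member by edgeR, as given above for the genotype effects. In Cre-positive libraries Hk2 was the 1 member called, at -1.09 ± 0.21 (adjusted p = 0.00163), where 2.57% of all tested genes were called. In Cre-negative libraries 8 members were higher and 0 lower in Tfh1, where 2.23% of all tested genes were called in either direction and 1.50% higher: Aldoa and Aldoc, both aldolases, Egln3, Bnip3l, Fam162a, Plod2, Ddit4 and Mxi1. The B cell list summed to 140.3 to 169.6 CPM in Cre-negative Tfh1 and 73.4 to 91.8 CPM in Cre-negative TfhA libraries, and that of CD8 T, NK and innate lymphoid cells to 31.7 to 72.1 CPM in Cre-negative Tfh1 and 181 to 244 CPM in Cre-negative TfhA libraries. H2-Ab1 averaged 135 ± 14.9 CPM in Cre-negative Tfh1 and 55.5 ± 11.5 CPM in Cre-negative TfhA libraries. In the same order Cd74 averaged 2.81 ± 1.33 and 8.36 ± 8.88 CPM, and Ebf1 20.0 ± 4.25 and 17.5 ± 5.79 CPM. Pax5 and Ncr1 were at 0 in both groups, and the part of these lists in the results was not tested. Ddit4 had 303, 506 and 470.2 CPM in Cre-negative Tfh1 and 211, 246 and 214 CPM in Cre-negative TfhA libraries (log2 fold change 0.93 ± 0.21, adjusted p = 0.00736). Plod2 had 77.4, 78.4 and 96.2 CPM in Cre-negative Tfh1 and 37.7, 42.4 and 16.1 CPM in Cre-negative TfhA libraries (log2 fold change 1.39 ± 0.33, adjusted p = 0.0115). The fold changes of the other 6 ran from 0.65 ± 0.18 for Fam162a to 1.36 ± 0.34 for Mxi1.

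Most of these 8 calls were lost with 1 library left out. Without Cre-negative Tfh1 replicate 4 only Plod2 kept its call, and the adjusted p of the other 7 ran from 0.0832 for Fam162a to 0.277 for Bnip3l. Without Cre-negative TfhA replicate 5 there were 3 calls, without Cre-negative TfhA replicate 2 there were 4, and without Cre-negative Tfh1 replicate 5 there were 5. Over all tested genes 262 were called in the main fit and 129, 189 and 201 in these 3 fits. Without Cre-negative Tfh1 replicate 4 there were 147. With the 6 libraries compared fitted alone, 15 members were called, 14 higher and 1 lower, while the count over all tested genes rose from 262 to 566.

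Over the 12 comparisons 33 of the 42 members were called at least once. The share of all tested genes called at least once was not counted, so this number does not set the members apart from other genes. The 9 that never were are the enzymes Gpi1, Pfkl and Pkm, the routing genes Slc16a1, Pfkfb3 and Pfkfb4, the collagen prolyl hydroxylases P4ha1 and P4ha2, and Kdm3a.

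Genes of the same pathways outside the module were looked at in the genotype comparison of Tfh5. Of 26 other glycolysis genes 15 were tested, and 1 was lower and 0 higher: Pgm1, the phosphoglucomutase that links glycogen to glycolysis, with 45.6 ± 18.8 CPM in Cre-positive and 109 ± 30.00 CPM in Cre-negative Tfh5 libraries (log2 fold change -1.25 ± 0.27, adjusted p = 0.00483). Of 47 other genes of the HIF pathway 39 were tested, and 4 were lower and 0 higher. Tfrc, the transferrin receptor, averaged 116 ± 35.1 CPM in Cre-positive and 325 ± 18.8 CPM in Cre-negative Tfh5 libraries (log2 fold change -1.48 ± 0.21, adjusted p = 1.87e-05). Ppp1r3b, a glycogen-targeting phosphatase subunit, was at -1.59 ± 0.44 (adjusted p = 0.0361). The mitochondrial protease Lonp1, named after its values were seen, was at -1.05 ± 0.29 (adjusted p = 0.0374).

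Neighbouring carbon pathways were counted in the same comparison, where 3.24% of all tested genes were called in either direction and 2.05% lower. Of 7 pentose phosphate genes 1 was lower and 0 higher in Tfh5, Tkt, the transketolase (log2 fold change -0.98 ± 0.21, adjusted p = 0.00517). Of 21 tested tricarboxylic acid cycle genes 1 was lower and 0 higher, Mdh1, the cytosolic malate dehydrogenase (log2 fold change -0.77 ± 0.22, adjusted p = 0.0406). The median log2 fold change was 0.00 over other glycolysis genes, -0.76 over other HIF pathway genes, -0.10 over pentose phosphate genes and 0.09 over tricarboxylic acid cycle genes. In Tfh1, where 0.852% of all tested genes were called in either direction and 0.341% lower, Tfrc was the 1 gene of these lists called. It had 157 ± 29.6 CPM in Cre-positive and 388 ± 49.1 CPM in Cre-negative Tfh1 libraries (log2 fold change -1.31 ± 0.21, adjusted p = 0.000381). A single call among these lists does not set them apart from all tested genes. In TfhA none was called by edgeR. In TfhA 4 genes of these lists had an unadjusted p under 0.05, as had 606 of all 11735 tested genes.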

How the data were processed

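Each of the 18 deposited files holds expected counts per gene, not normalized, which the authors made with STAR 2.7.2b and featureCounts 1.6.4 on mm10, per the submitters' processing notes. Of the values, 11.7% to 18.1% per library are not whole, so some reads were counted in parts. The rule for splitting reads and the strand setting are not given in the sources. The tests planned for whole counts were therefore run on rounded values. Of 27179 identifiers, 25275 were named through a RefSeq table of GRCm38.p6 and 1904 were not, among them the 2 most abundant, which took 19.7% to 46.2% of a library.

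A robust quasi-likelihood fit in edgeR 4.0.16 (R 4.3.3, limma 3.58.1) with TMM scaling and 1 mean per group over all 18 libraries was used after filterByExpr, which left 11735 genes. P-values were adjusted by Benjamini-Hochberg over these genes, with a threshold of 0.05. CPM are rounded counts over library size times TMM factor, and SEs were worked back from the F statistic. No level is compared between genes. Where a group had 0 counts the fold is a bound from a floor of 3 counts over the group, and with 1 to 3 counts a ratio with a 95% interval; both cover counting error only. The fit was tried on counts simulated with the same fixed spread for every gene. That spread was smaller than the one estimated in these libraries, whose common biological coefficient of variation was 0.814. The trial therefore does not show how the fit performs on these data. Alternatives were RLE scaling, no filter, DESeq2 1.42.0, a replicate block, the compared libraries alone, each library left out, and, chosen after seeing the data, leaving out the 2 most abundant identifiers.

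The members and lists were chosen with earlier results of these data known. Members called in a genotype comparison or a difference of them are given with their values, up to 2 per role in each treatment contrast and up to 3 of each other list. Some genes of the marker and pathway lists enter the counts and sums but are not reported here by name.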

Additional observations from a re-analysis of the deposited data

Results flagged for a closer look

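Differences between treatments in the genotype effect (Cre-positive over Cre-negative label) were the results that met the test of a difference between groups, 15 in all, each from the interaction term of the edgeR fit and each more negative in Tfh5. Against TfhA, the enzymes were Hk2 at -1.79 ± 0.30 (adjusted p = 0.000403), Pfkp at -1.35 ± 0.32 (adjusted p = 0.0207), Aldoc at -1.60 ± 0.39 (adjusted p = 0.0241), Pgk1 at -1.0 ± 0.24 (adjusted p = 0.0192) and Ldha at -1.02 ± 0.25 (adjusted p = 0.0306), log2 values ± SE. The lactate transporter Slc16a3 was at -1.12 ± 0.29 (adjusted p = 0.0479).

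The mitochondrial genes of this group were Bnip3 at -1.61 ± 0.32 (adjusted p = 0.00392), Fam162a at -2.10 ± 0.25 (adjusted p = 1.28e-06) and Mgarp at -4.25 ± 0.81 (adjusted p = 0.00623). Ero1a was at -2.25 ± 0.41 (adjusted p = 0.00138), Ndrg1 at -2.77 ± 0.43 (adjusted p = 0.000121) and Hilpda at -2.69 ± 0.34 (adjusted p = 4.32e-06). Vegfa had a fitted value of -8.96 ± 2.06 (adjusted p = 0.0173), which depends on the prior count because the Cre-positive Tfh5 libraries held 0 counts, and is no bound. Against Tfh1, Pgk1 was at -1.15 ± 0.24 (adjusted p = 0.0385) and Fam162a at -1.62 ± 0.25 (adjusted p = 0.000766).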

How the results depend on the processing

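No call of a member reversed: of 1244 alternatives to the 98 called results, 1067 kept the call and 177 lost it. Of the 98, 43 were called in every alternative that tested them. Counts of members called in Tfh5 by genotype were 4 with the 6 libraries alone and 13 to 18 with 1 library left out. With 1 left out the median over enzymes was -0.75 to -0.59 and over other hypoxia genes -1.20 to -0.92. Of all tested genes 380 were called in the main fit, 80 with the 6 alone and 258 to 387 with 1 left out. In Tfh1 members called were 2 with no filter, 3 with DESeq2, 3 with the 6 libraries alone and 1 to 2 with 1 left out. All genes called there were 100 in the main fit, and 168, 263, 131 and 51 to 99 in the same order. In TfhA members called were 1 with RLE, with no filter and with DESeq2, and 0 to 1 with 1 left out. With 1 left out the enzyme median was 0.15 to 0.30. All genes called there were 0 in the main fit, 1 with RLE, 23 with no filter, 18 with DESeq2 and 0 to 4 with 1 left out. For Tfh1 over TfhA under the Cre-positive label members called were 2 with no filter, 4 with DESeq2 and 4 with the 6 libraries alone. All genes called were 302 in the main fit, and 430, 588 and 324 in the same order. Under the Cre-negative label members called were 15 with the 6 alone and 1 to 7 with 1 left out. All genes called were 262 in the main fit, 566 with the 6 alone and 129 to 202 with 1 left out. For Tfh5 over TfhA under the Cre-positive label members called were 24 in the main fit and 16 to 26 with 1 left out. All genes called were 633, and 448 to 543 with 1 left out. For Tfh5 over Tfh1 under the Cre-positive label members called were 28 in the main fit and 21 to 26 with 1 left out. All genes called were 206, and 145 to 192 with 1 left out. For Tfh5 over TfhA under the Cre-negative label DESeq2 called 6 members, and 855 of all genes against 596 in the main fit. For Tfh5 over Tfh1 under that label members called were 1 with RLE, 4 with no filter, 4 with DESeq2 and 0 to 1 with 1 left out. There was 1 without the 2 most abundant identifiers, a setting chosen after seeing the data. All genes called were 65 in the main fit, and 66, 232, 211, 25 to 94 and 64 in the same order. Between Tfh5 and TfhA the genotype effects differed for 7 members with the 12 libraries alone and 8 to 14 with 1 left out. All genes were 140 in the main fit, and 88 and 81 to 164 in the same order. Between Tfh1 and TfhA there was 1 member with DESeq2 and 2 with the 12 alone. All genes were 28 in the main fit, and 63 and 64 in the same order. Between Tfh5 and Tfh1 members were 1 with RLE, 7 with no filter, 9 with DESeq2, 1 with the 12 alone and 1 to 5 with 1 left out. All genes were 7 in the main fit, and 6, 45, 52, 3 and 5 to 21 in the same order. The cause was not tested.

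Deviations from the group mean had correlations of -0.04 to 0.08 between samples with the same replicate number. The highest correlations with another number were -0.01 to 0.06. Values this near 0, in deviations from means of 3 libraries, cannot decide whether the numbers pair the samples. The main fit had no block because no label says what a number stands for, and the genotype labels share none. With a replicate block 6 members differed in genotype effect between Tfh5 and Tfh1, among 16 of all genes against 7 without it. The block lost 3 calls: Vegfa in the difference between Tfh5 and TfhA (adjusted p = 0.058), and, among Cre-positive libraries, Adm in Tfh5 over TfhA (0.0786) and Pfkp in Tfh5 over Tfh1 (0.0553). Pfkfb4, Adm and Vegfa had the fewest counts of the members over the 18 libraries, and with 3 libraries per group a call missed does not show that levels were alike.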

Other observations

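The pathway genes outside the module were also counted in the treatment contrasts, without naming genes. Among Cre-positive libraries, 11 of 39 tested HIF pathway genes and 3 of 15 tested glycolysis genes were lower and 0 higher in Tfh5 than in TfhA, with medians of -1.20 and 0.16 on the log2 scale, where 3.00% of all tested genes were lower. Against Tfh1 under the same label the counts were 4 of 39 HIF pathway genes and 3 of 15 glycolysis genes lower, 0 higher, with medians of -0.63 and 0.27, where 1.32% of all tested genes were lower. Under the Cre-negative label no gene of either list was called by edgeR in these contrasts, although the median over HIF pathway genes was -0.52 against TfhA and -0.84 against Tfh1. At an unadjusted p under 0.05 there were 6 HIF pathway genes and 1 glycolysis gene against TfhA, and 8 HIF pathway genes and 2 glycolysis genes against Tfh1, beside 1866 of all 11735 tested genes against TfhA and 1218 against Tfh1. No gene of the 7 in the pentose phosphate list was called by edgeR in either contrast under either label, with 2 at an unadjusted p under 0.05 in each. Of 21 tested tricarboxylic acid cycle genes 4 were called in Cre-negative Tfh5 over TfhA, 2 higher and 2 lower, where 5.08% of all tested genes were called in either direction.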
